A study of Mus musculus with 8 samples.

Results

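Fatty acid oxidation and ketogenesis genes were followed in mouse liver tumours driven by c-MYC. The list named 40 genes by function, from fatty acid uptake to ketone bodies, and 37 of them had a probe set of their own among 19937 genes tested. Acsl1, Acsl3 and Cpt1b had no probe set annotated to them alone and were not analysed here. The samples were 4 c-MYC liver tumours, taken at the humane endpoint, and 4 control livers described as normal livers of matched mice. RNA of each sample was hybridised to an Affymetrix Mouse Gene ST array, and all values are RMA-normalised log2 intensities, in which a difference of 1 is a 2-fold change. Per the labels, human c-MYC was overexpressed in the liver from the CEBPB-LAP promoter under doxycycline control. The protocol text is the same for all 8 samples, so which alleles or drug the control mice carried or received is not stated, and neither are sex, age, strain, feeding state and time of day.

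A fatty acid that enters a hepatocyte is bound to a carrier protein, joined to coenzyme A and then broken down in either of 2 organelles. Mitochondria take up long chains as carnitine esters, shorten them by repeated cycles of beta-oxidation and pass the electrons through the electron transfer flavoprotein to the respiratory chain. Peroxisomes shorten very long and branched chains and make bile acids, release hydrogen peroxide in their first step, and hand shortened chains to mitochondria as carnitine esters. In the fasting liver much of the acetyl-CoA becomes ketone bodies, and the nuclear receptor PPAR alpha, paired with RXR, switches on genes of all these steps.

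Arrays of a group were alike, with Pearson correlations across genes of 0.979 to 0.989 among tumours and 0.970 to 0.982 among controls, against 0.865 to 0.897 between a tumour and a control. These values describe likeness across genes, which are no replicates of a sample. Hepatocyte markers were present in both groups. All 14 measured were lower in tumours, and their log2 summed level was 14.75 to 15.22 in tumours against 15.77 to 16.02 in controls. Of 5 genes of dividing cells, 5 were higher. A pair of control livers stood apart. Control liver 3 had Xist at 11.89 and 3 Y-linked genes at 3.46 to 5.39, where the other 7 arrays had Xist at 4.86 to 7.12 and the Y-linked genes at 7.62 to 9.37. By these genes control liver 3 read as female and the other 7 arrays as male. In control liver 1 the mean log2 level of 6 acute phase genes was 12.38, against 5.57 to 6.64 in tumours and 8.15 to 9.26 in the other controls. Tumour 4 also stood apart: it was the highest tumour for 42.4% of all genes, and limma's array weights put it lowest of the 8 arrays, at 0.426 against 0.843 to 2.23 for the others. Values without control liver 1 or 3 are given beside the listed genes that either moved by more than 1.5 times. In such bulk samples, fewer cells of a type and less RNA per cell cannot be told apart.

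Of the 37 genes, 17 fell and 2 rose in tumours, and 18 did not pass the threshold, an adjusted p of 0.05 in limma over all genes. Among all genes tested, 12.7% were lower and 16.2% higher, or 28.9% in either direction. The median log2 change (tumours minus controls) was -0.65 over the 37 genes and -0.04 over all genes. The 14 hepatocyte markers had a median change of -0.92, and their part in the lower values was not tested. The steps are given by how many of their genes passed. Peroxisomal oxidation had 7 of 8 genes lower and a median change of -1.82, mitochondrial oxidation 3 of 10 and -0.21, and the electron transfer flavoprotein 0 of 3 and -0.45. Thioesterases were the step with higher genes, 2 of 3. A change of at least 2-fold in either direction, whether past the test or not, was measured for 12 of the 37, against 10.4% of all genes, and 7 of the 12 were peroxisomal. All 4 tumours lay below all 4 controls for 17 of the 37 genes and above them for 2. Of all genes, 13.9% had all tumours below and 16.3% all tumours above the controls, or 30.2% in either direction.

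**Figure D1:**
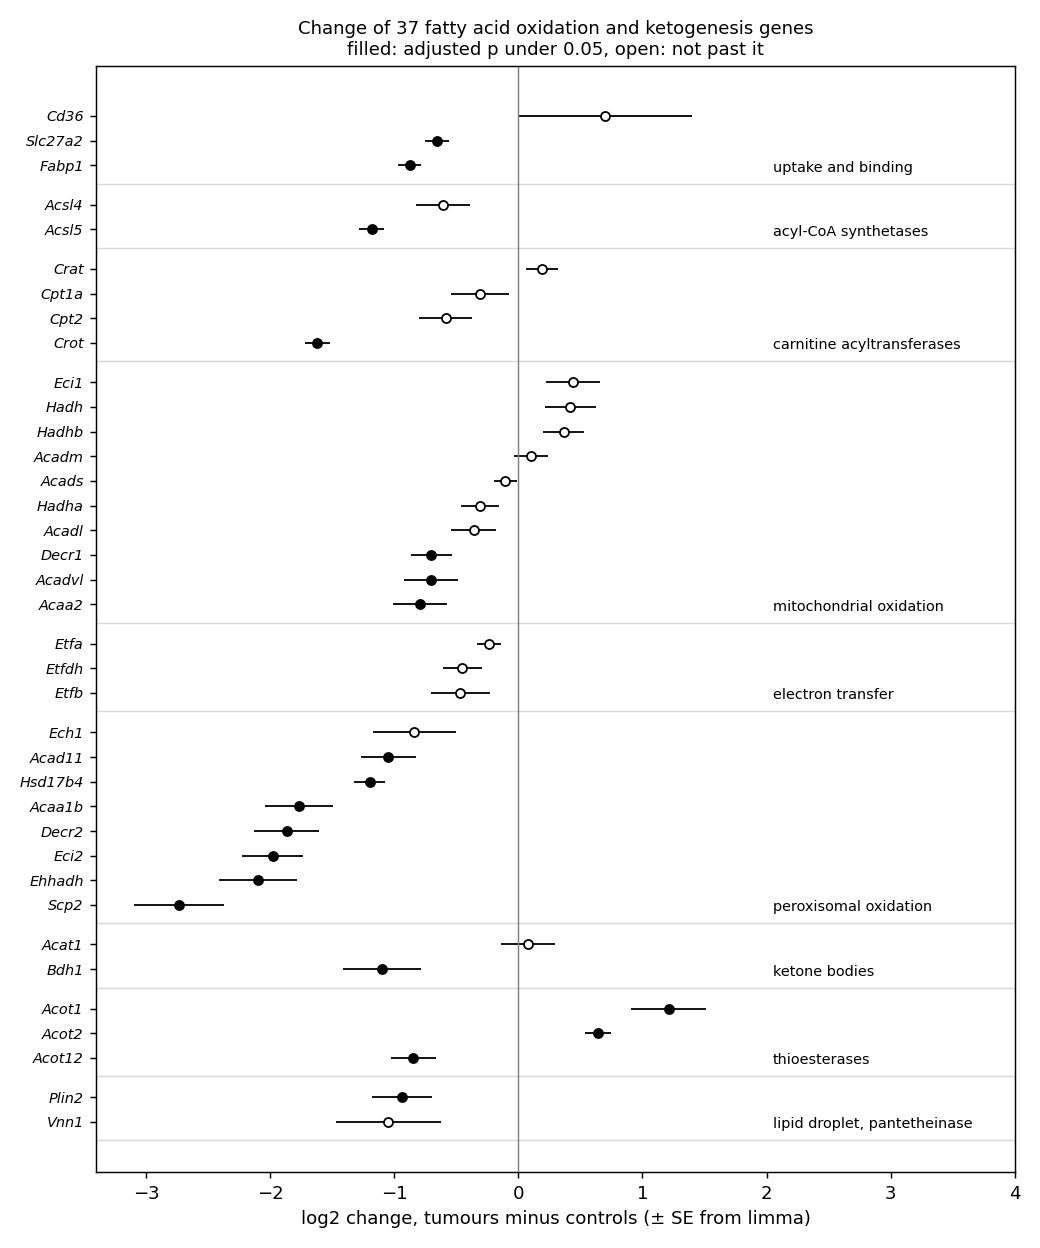
Log2 change (tumours minus controls, horizontal axis, ± SE from limma) of the 37 measured genes, grouped by step from uptake at the top to lipid droplets at the bottom. Filled points passed an adjusted p of 0.05. The peroxisomal genes lie between -2.73 and -0.84, and the mitochondrial oxidation genes between -0.79 and 0.44, with 7 of these 10 open.

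Scp2 fell most of the 37 genes. It encodes both the sterol carrier protein and a peroxisomal thiolase that cleaves branched chains and bile acid precursors. Its log2 values were 8.79, 8.81, 8.94 and 8.93 in tumours 1 to 4, against 12.07, 11.93, 10.23 and 12.17 in control livers 1 to 4. The tumours lay within a narrow range, all below the lowest control, which was control liver 3. The change was -2.73 (SE 0.36, 6.65-fold, adjusted p = 0.000224 in limma), and it was -3.19 without control liver 3. By size of fall it ranked 236th among all 19937 genes.

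Ehhadh, the peroxisomal bifunctional enzyme for straight chains and a classic target of PPAR alpha in rodents, read 7.38, 8.26, 8.09 and 7.28 in the tumours, against 8.92, 10.05, 10.32 and 10.12 in the controls. The groups did not overlap, and control liver 1 was the lowest control. The change was -2.10 (SE 0.32, 4.28-fold, adjusted p = 0.000538 in limma); leaving out control liver 1 gave -2.41. Hsd17b4, the second bifunctional enzyme, which serves branched and very long chains, read 9.82, 9.92, 9.94 and 9.53 in tumours and 10.79, 11.09, 10.94 and 11.17 in controls. Its spread was small in either group, and it fell by 1.20 (SE 0.13, adjusted p = 4.4e-05 in limma).

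Acaa1b, a peroxisomal 3-ketoacyl-CoA thiolase, averaged 6.80 ± 0.07 in tumours and 8.56 ± 0.68 in controls (SD, n = 4 each), with control values between 7.72 and 9.38. It fell by 1.77 (SE 0.27, 3.41-fold, adjusted p = 0.000606 in limma). Decr2 and Eci2 act on unsaturated chains, Decr2 as a dienoyl-CoA reductase and Eci2 as an enoyl-CoA isomerase that is found in mitochondria as well. Decr2 read 8.03, 8.44, 8.46 and 7.63 in tumours, against 9.46, 9.70, 10.26 and 10.61 in controls. Eci2 read 7.86, 8.49, 8.62 and 7.96 in tumours, against 9.96, 9.78, 10.26 and 10.85 in controls. Every tumour lay below every control for both genes, with changes of -1.87 (SE 0.26) for Decr2 and -1.98 (SE 0.24) for Eci2. Acad11, an acyl-CoA dehydrogenase reported in peroxisomes, fell by 1.05 (SE 0.22, adjusted p = 0.00445 in limma), with 7.98 to 8.67 in tumours against 9.11 to 10.01 in controls.

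Ech1, a dienoyl-CoA isomerase found in both organelles, was the peroxisomal gene that did not pass. It read 7.99, 8.47, 8.46 and 7.16 in tumours, against 8.14, 8.72, 9.04 and 9.53 in controls, so the groups overlapped at control liver 1. Its change was -0.84 (SE 0.33, adjusted p = 0.0898 in limma); leaving out control liver 1 gave -1.08 (adjusted p = 0.0308 in limma), and leaving out tumour 4 gave -0.55 (adjusted p = 0.191).

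The listed genes of the mitochondrial cycle changed less in size than the listed peroxisomal ones. Outside the list the order of the medians was the opposite, as given with those genes. Acaa2, the mitochondrial 3-ketoacyl-CoA thiolase, read 10.72, 10.84, 11.00 and 10.13 in tumours, against 11.22, 11.27, 11.37 and 12.01 in controls. It fell by 0.79 (SE 0.22, 1.73-fold, adjusted p = 0.0187 in limma), with all tumours below all controls. Decr1, the mitochondrial dienoyl-CoA reductase, fell by 0.70 (SE 0.16, adjusted p = 0.00798 in limma), with 10.05 to 10.61 in tumours against 10.71 to 11.42 in controls. Acadvl, the dehydrogenase that opens the cycle for very long chains, averaged 9.55 ± 0.31 in tumours and 10.26 ± 0.43 in controls (SD, n = 4 each), and its groups overlapped. It fell by 0.71 (SE 0.22, adjusted p = 0.0330 in limma). Leaving out tumour 1, 2 or 4, or control liver 3 or 4, left it short of the threshold, with an adjusted p between 0.0594 and 0.0828.

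The other acyl-CoA dehydrogenases did not pass. Acadm, which handles medium chains, read 10.21, 10.42, 10.42 and 10.10 in tumours, against 9.82, 10.28, 10.35 and 10.30 in controls. Apart from the low value of control liver 1, the groups lay in the same range, and the change was 0.10 (SE 0.14, adjusted p = 0.658 in limma), -0.02 without that library and 0.15 without control liver 3. Acads, for short chains, read 7.05 to 7.18 in tumours and 7.09 to 7.34 in controls (change -0.11, SE 0.09, and -0.20 without control livers 1 and 3). For Acadl, of long chains, the change was -0.36 (SE 0.18, adjusted p = 0.173 in limma); leaving out control liver 1 gave -0.52 (adjusted p = 0.0336). Hadh, the short-chain 3-hydroxyacyl-CoA dehydrogenase, and Eci1, the mitochondrial enoyl-CoA isomerase, had positive changes of 0.42 (SE 0.20) and 0.44 (SE 0.22) that did not pass, with an adjusted p of 0.166 and 0.177 in limma. Leaving out tumour 4 gave Hadh 0.57, which passed (adjusted p = 0.0481 in limma), and leaving out control liver 1 gave 0.29. For Eci1, leaving out control liver 1 gave 0.25 (adjusted p = 0.404 in limma).

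Hadha and Hadhb encode the alpha and beta subunits of the mitochondrial trifunctional protein, which runs the last steps of the cycle for long chains. In the RefSeq annotation of GRCm38.p6 their starts lie 273 bases apart on opposite strands of chromosome 5, so the 300-base promoter windows (250 bases before to 50 after each start) share 228 bases. The window of Hadhb, at chr5:30155003-30155302 on the plus strand, is shown because it covers most of the stretch between the starts of the subunit genes; capitals mark the bases shared with the window of Hadha.
Hadhb promoter: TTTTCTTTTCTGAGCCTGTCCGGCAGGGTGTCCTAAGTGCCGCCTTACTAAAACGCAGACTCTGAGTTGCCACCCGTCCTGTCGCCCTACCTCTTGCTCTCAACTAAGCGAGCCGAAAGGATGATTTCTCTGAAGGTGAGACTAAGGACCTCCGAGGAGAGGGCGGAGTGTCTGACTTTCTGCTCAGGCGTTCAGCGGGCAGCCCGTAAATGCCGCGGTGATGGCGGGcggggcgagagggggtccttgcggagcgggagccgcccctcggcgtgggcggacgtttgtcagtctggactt

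Hadha read 10.71, 10.53, 10.62 and 10.23 in tumours, against 10.59, 10.60, 10.98 and 11.15 in controls, a change of -0.31 (SE 0.16, adjusted p = 0.181 in limma). Hadhb read 10.87, 10.80, 11.01 and 10.71 in tumours, against 10.28, 10.08, 10.76 and 10.80 in controls, a change of 0.37 (SE 0.16, adjusted p = 0.132 in limma). Neither subunit passed alone, and the groups overlapped for each. The difference within arrays, Hadha minus Hadhb, was -0.48 to -0.16 in tumours and 0.22 to 0.52 in controls, so it did not overlap. It was lower in tumours by 0.67 on the log2 scale (difference -0.67, SE 0.10), with an exact two-sided permutation p of 0.0286, the smallest that 4 arrays against 4 allow, and an adjusted p of 0.0400 over the 7 enzyme pairs compared.

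In 5 of these 7 pairs, a peroxisomal enzyme was set within arrays against a mitochondrial enzyme of the same type. In 4 of the 5, the difference between the peroxisomal and the mitochondrial enzyme was lower in every tumour than in every control. Each of these 4 had the smallest exact permutation p possible. Whether its adjusted p lay under 0.05 therefore depended on how many such pairs were among the 7. All 7 pairs were chosen with earlier results of these data known, so their p-values are no independent support. For the isomerases Eci2 and Eci1 it averaged -0.16 ± 0.42 in tumours and 2.26 ± 0.35 in controls (SD, n = 4 each; exact permutation p = 0.0286, adjusted p = 0.0400). For Ehhadh and Hadha, which each hold a hydratase and a dehydrogenase activity, it averaged -2.77 ± 0.47 in tumours and -0.98 ± 0.50 in controls (SD, n = 4 each), a shift of -1.79 (SE 0.34). The reductases Decr2 and Decr1 shifted by -1.17 (SE 0.27), and the carnitine acyltransferases Crot and Cpt2 by -1.04 (SE 0.26), with the same exact permutation p and adjusted p. Crot and Cpt2 serve different chains and steps, so their pair does not compare the same reaction. For the thiolases Acaa1b and Acaa2 the shift was -0.97 (SE 0.29), with an exact permutation p of 0.0571 and an adjusted p of 0.0667, and control liver 1 lay within the range of the tumours. Acaa1a, a peroxisomal thiolase outside the list, was not paired. It changed by -0.56 (SE 0.15), a smaller fall than the -0.79 (SE 0.22) of Acaa2. A difference between probe sets of 2 genes shows unequal change and not which organelle did more work.

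**Figure D2:**
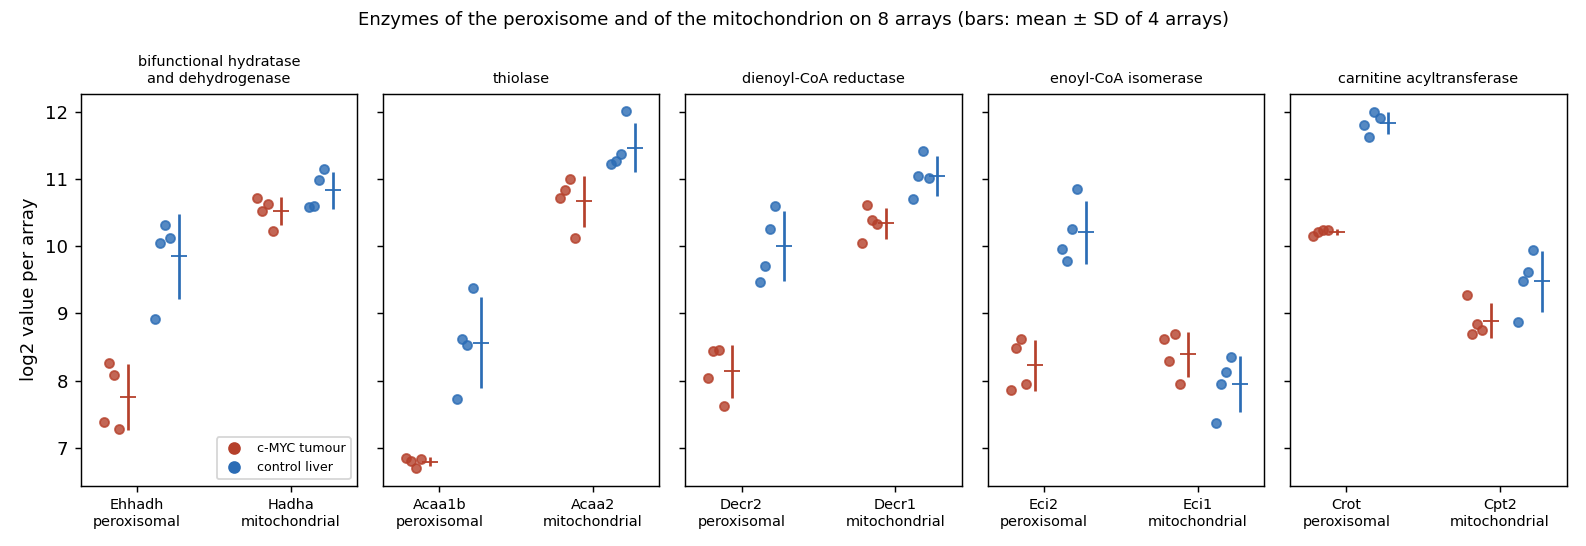
Log2 value per array of the peroxisomal enzyme (left in each panel) and the mitochondrial enzyme (right) of 5 pairs, with c-MYC tumours in red and control livers in blue. Points are arrays and bars are the mean ± SD of 4 arrays. Every tumour lies below every control for the 5 peroxisomal enzymes, while for Hadha, Eci1 and Cpt2 the groups overlap.

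Among the carnitine acyltransferases, Crot, the peroxisomal octanoyltransferase that exports shortened chains, was the one that fell. It read 10.15, 10.21, 10.24 and 10.24 in tumours, against 11.81, 11.62, 12.00 and 11.91 in controls. The tumours differed from each other by less than 0.1, and the change was -1.62 (SE 0.10, 3.08-fold, adjusted p = 1.2e-06 in limma), with the lowest adjusted p of the 37 genes. Cpt1a, the outer mitochondrial membrane enzyme that controls entry of long chains, read 9.03, 8.22, 8.72 and 8.52 in tumours, against 8.73, 8.53, 8.88 and 9.58 in controls. These groups overlapped widely (change -0.31, SE 0.23, adjusted p = 0.387 in limma); leaving out control liver 4 gave -0.09. Cpt2, its partner at the inner membrane, changed by -0.58 (SE 0.21, adjusted p = 0.0670 in limma), and passed without control liver 1 (-0.79, adjusted p = 0.00647) or without tumour 1 (-0.71, adjusted p = 0.0410). Crat, which moves acetyl groups, averaged 8.11 ± 0.14 in tumours and 7.92 ± 0.22 in controls (SD, n = 4 each; change 0.19, SE 0.13), and its change was 0.09 without control liver 1.

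The electron transfer flavoprotein and its dehydrogenase, which take electrons from the acyl-CoA dehydrogenases, had negative changes that did not pass. Etfa and Etfb, its subunits, changed by -0.24 (SE 0.10) and -0.47 (SE 0.24), with an adjusted p of 0.104 and 0.181 in limma. Etfb stood at 8.71 to 9.51 in tumours and at 9.40, 9.41, 9.46 and 10.31 in controls, and its change was -0.25 without control liver 4. The difference within arrays between Etfa and Etfb was 1.62 to 2.36 in tumours and 1.07 to 1.97 in controls, with an exact permutation p of 0.514. Etfdh changed by -0.45 (SE 0.16, adjusted p = 0.0581 in limma), and passed without control liver 1 (-0.56, adjusted p = 0.0264).

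At the entry of the pathway, Fabp1 and Slc27a2 fell. Fabp1, the main fatty acid binding protein of the hepatocyte cytosol, read 11.95, 12.18, 11.95 and 11.93 in tumours, against 12.87, 12.85, 12.90 and 12.89 in controls. The change was -0.88 (SE 0.09, adjusted p = 4.3e-05 in limma) at a brightness near the top of the arrays, whose highest value was 13.56. Slc27a2, a very long chain acyl-CoA synthetase and transport protein, averaged 11.84 ± 0.04 in tumours and 12.49 ± 0.14 in controls (SD, n = 4 each; change -0.65, SE 0.10). Both groups of arrays were tight for these genes and did not overlap.

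The Fabp1 promoter is shown because it was the only promoter window of the listed genes with a relaxed form of the DR1 element that PPAR alpha and RXR bind. The searches covered both strands of 32 windows of 31 genes. The full element, AGGTCA repeated in the same direction with 1 free base between the copies, was in 0 of them and in 0.0396% of all 32851 windows. The relaxed form, AGGNCA repeated likewise, includes the full element and was in 1 of the 32 (3.12%) and in 0.381% of all windows. The window lies at chr6:71199629-71199928 on the plus strand of GRCm38.p6, and capitals mark the match, read there on the opposite strand, whose first base lies 67 bases before the start.
Fabp1 promoter: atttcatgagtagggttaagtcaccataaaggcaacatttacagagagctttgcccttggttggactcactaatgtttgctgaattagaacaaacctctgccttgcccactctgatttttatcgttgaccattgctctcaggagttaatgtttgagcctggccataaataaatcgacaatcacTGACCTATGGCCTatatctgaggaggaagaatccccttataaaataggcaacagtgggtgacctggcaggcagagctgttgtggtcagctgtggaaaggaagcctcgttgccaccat

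Cd36, a scavenger receptor that takes up long chains and is also made by macrophages, endothelium and fat cells, had the widest control spread. It read 8.40, 8.75, 9.13 and 9.05 in tumours, against 6.57, 7.49, 10.69 and 7.78 in controls. All tumours lay above 3 of the controls and below control liver 3. The change was 0.70 (SE 0.70, adjusted p = 0.526 in limma); leaving out control liver 3 gave 1.55 (adjusted p = 0.00221), and leaving out control liver 1, the lowest control, gave 0.18 (adjusted p = 0.886). The log2 summed level of 11 macrophage markers was 11.21 to 11.93 in tumours and 11.41 to 12.24 in controls, with 4 of them higher and 2 lower. The sum covers large changes in both directions. The largest rise was that of Cd68 (2.11, SE 0.26), and the 2 lower genes were Vsig4 (-2.38, SE 0.50) and Clec4f (-1.75, SE 0.18). The log2 summed level of 5 fat cell markers was 7.94 to 8.18 in tumours and 8.12 to 8.40 in controls. Adipoq read 4.56 to 5.02 in tumours and 5.09 to 5.30 in controls. All its values lay under the 5.39 that Y-linked genes reached in control liver 3, so whether Adipoq differed could not be measured here. Of 11 endothelial markers, 1 was higher and 5 were lower. Over all genes the shares were 16.2% higher and 12.7% lower. The part of macrophages, fat cells and endothelium in the Cd36 values was not tested.

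Of the acyl-CoA synthetases, Acsl5, which the liver uses for chains bound for storage and oxidation, read 9.77, 9.79, 9.75 and 9.59 in tumours, against 10.92, 10.87, 11.07 and 10.74 in controls. It fell by 1.18 (SE 0.10, 2.27-fold, adjusted p = 1.0e-05 in limma). Acsl4, which prefers arachidonic acid, changed by -0.61 (SE 0.22, adjusted p = 0.0634 in limma), with 8.15 to 8.85 in tumours and 8.84 to 9.83 in controls. Leaving out control liver 4 gave -0.72, which passed (adjusted p = 0.0436 in limma), and leaving out control liver 1, the highest control, gave -0.39 (adjusted p = 0.116).

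The ketone body enzymes moved unequally. Bdh1, which interconverts acetoacetate and 3-hydroxybutyrate, read 6.89, 6.81, 6.69 and 6.41 in tumours, against 7.16, 7.26, 7.97 and 8.81 in controls. It fell by 1.10 (SE 0.31, 2.14-fold, adjusted p = 0.0230 in limma), and the call was lost without tumour 3 (adjusted p = 0.0523), tumour 4 (0.0634) or control liver 3 (0.0524). Acat1, the mitochondrial acetoacetyl-CoA thiolase that serves both ketone synthesis and ketone use, read 10.92, 10.90, 11.13 and 10.72 in tumours, against 10.28, 10.58, 11.08 and 11.41 in controls. The tumours lay inside the range of the controls, with a change of 0.08 (SE 0.22, adjusted p = 0.846 in limma) whose sign turned without control liver 1 (-0.11) or 2 (-0.01), and which was 0.16 without control liver 3 and 0.27 without control liver 4.

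Acyl-CoA thioesterases, which split acyl-CoA into free fatty acid and coenzyme A, included the 2 genes that rose. Acot1, the cytosolic form and a target of PPAR alpha, read 7.16, 7.06, 6.93 and 7.26 in tumours, against 4.86, 6.66, 6.10 and 5.95 in controls. It rose 2.32-fold (log2 change 1.21, SE 0.30, adjusted p = 0.0121 in limma), by 0.87 without control liver 1, and by 0.80 without control livers 1 and 3. Acot2, the mitochondrial form, read 7.39, 7.45, 7.53 and 7.66 in tumours, against 6.69, 7.01, 6.93 and 6.82 in controls, and rose 1.56-fold (log2 change 0.64, SE 0.10, adjusted p = 0.000893 in limma). Acot1 and Acot2 are close paralogues whose starts lie 21641 bases apart on chromosome 12, and whether the probe sets tell the transcripts apart was not tested. Acot12, a cytosolic acetyl-CoA hydrolase of liver, fell by 0.85 (SE 0.18, adjusted p = 0.00452 in limma), with 9.03 to 9.79 in tumours against 10.03 to 10.56 in controls.

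Plin2, which coats lipid droplets, read 9.24, 9.50, 9.53 and 8.82 in tumours, against 9.79, 9.80, 10.43 and 10.80 in controls, and fell by 0.94 (SE 0.24, 1.91-fold, adjusted p = 0.0144 in limma), with no overlap between the groups. Vnn1, a pantetheinase and a target of PPAR alpha in mouse liver, read 5.51, 5.74, 5.38 and 5.51 in tumours, against 5.99, 5.88, 8.18 and 6.29 in controls. Every tumour lay below every control, yet the change of -1.05 (SE 0.42) did not pass (adjusted p = 0.0957 in limma). Without control liver 3 it was -0.52 and passed (adjusted p = 0.0180).

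The Plin2 promoter is shown as the only window of the listed genes with the E-box CACGTG that MYC and MAX bind, which was in 1 of 32 windows (3.12%) and in 7.15% of all windows. It lies at chr4:86670010-86670309 on the minus strand of GRCm38.p6, and capitals mark the E-box, whose first base lies 4 bases before the start.
Plin2 promoter: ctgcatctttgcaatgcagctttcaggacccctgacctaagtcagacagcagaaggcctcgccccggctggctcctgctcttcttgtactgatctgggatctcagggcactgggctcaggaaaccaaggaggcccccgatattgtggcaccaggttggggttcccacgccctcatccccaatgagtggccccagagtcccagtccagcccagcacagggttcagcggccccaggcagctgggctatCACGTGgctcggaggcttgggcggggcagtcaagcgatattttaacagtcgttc

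The 37 genes varied more among controls than among tumours. Their median SD was 0.21 on the log2 scale in tumours and 0.42 in controls, against 0.17 and 0.16 over all genes, and the SD was larger in controls for 30 of the 37 (81.1%), against 48.8% of all genes. Control liver 4 was the highest control for 24 of the 37 genes (64.9%), against 22.6% of all genes. Control liver 1 was the lowest control for 25 of the 37 (67.6%), against 27.0% of all genes. Among tumours, tumour 4 was the lowest for 22 of the 37 (59.5%), against 24.5% of all genes. What part the acute phase genes of control liver 1 or the apparent sex of control liver 3 have in these values was not tested. The genes of an array share its RNA, so these counts describe the arrays and carry no test. Of the 37 genes, 2 had an array no higher than the 5.39 that Y-linked genes reached in control liver 3, Acot1 in control liver 1 and Vnn1 in tumour 3.

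**Figure D3:**
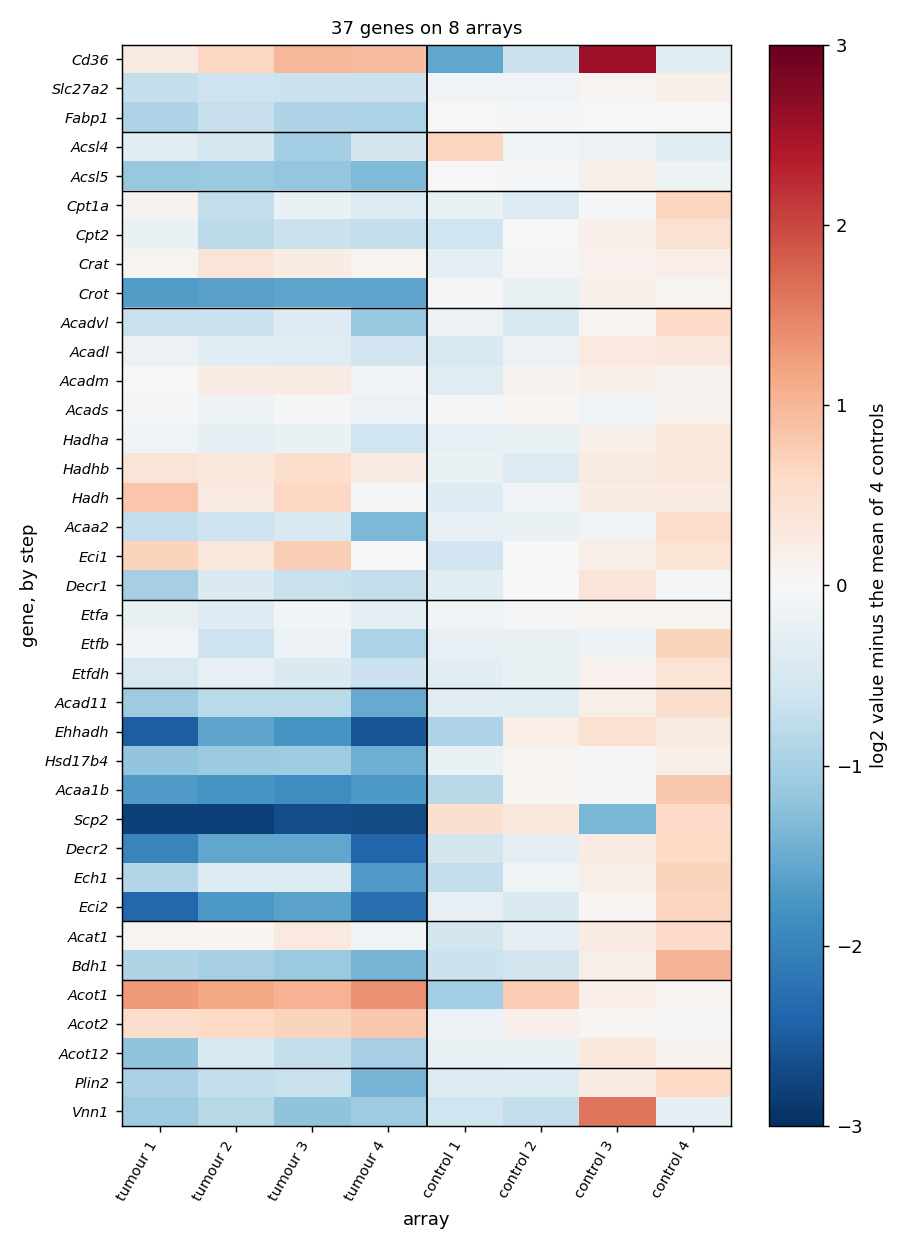
Log2 value of the 37 genes on each of the 8 arrays minus the mean of the 4 controls (colour scale from -3 to 3), tumours left and controls right, with lines between the steps. The peroxisomal block is low in all 4 tumours, and Cd36 and Vnn1 are high and Scp2 low in control liver 3.

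**Figure D4:**
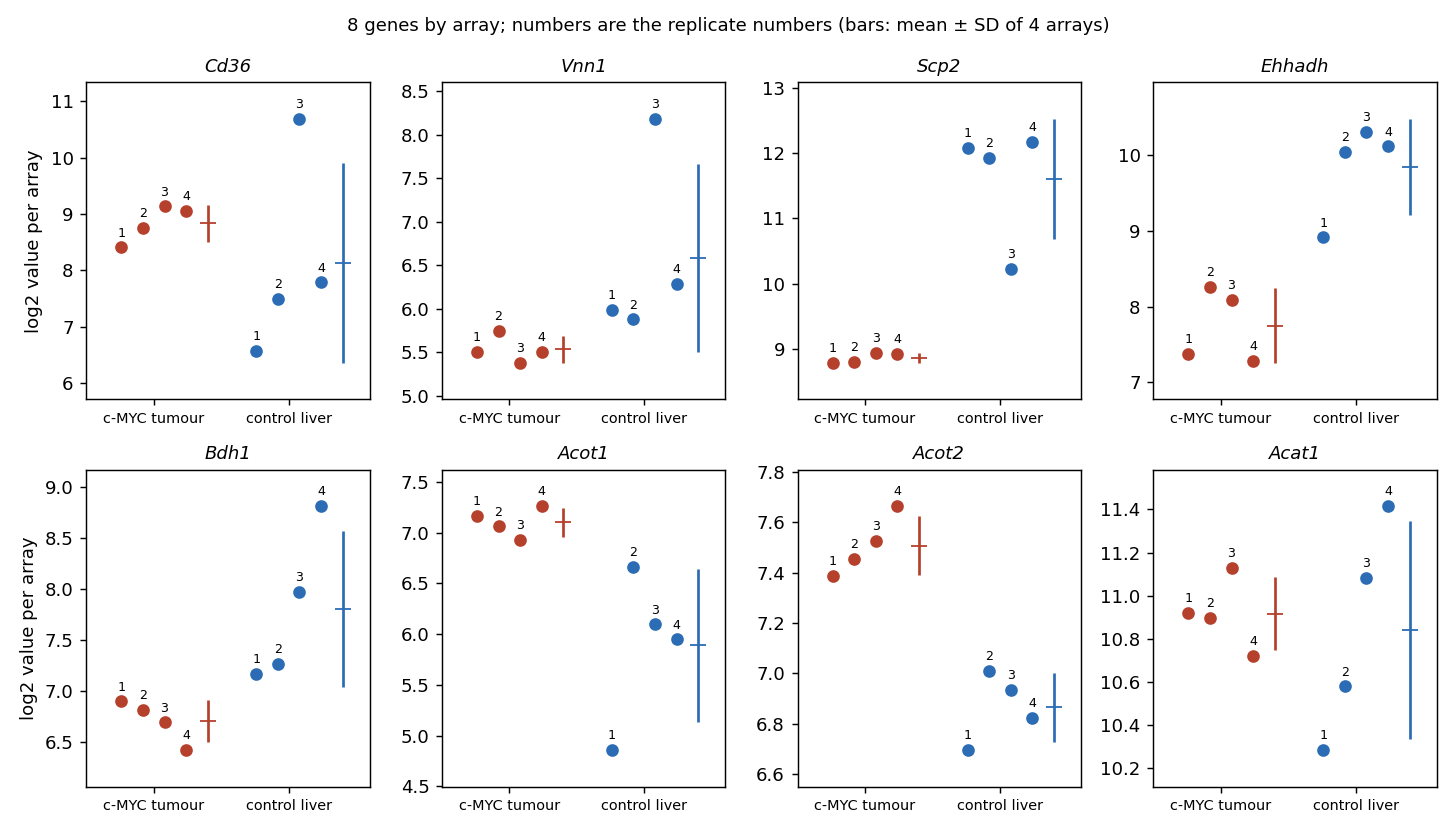
Log2 value per array (vertical axis) of 8 genes, with c-MYC tumours left and control livers right in each panel. Numbers are replicate numbers, and bars are mean ± SD (n = 4). Control liver 3 reads 10.69 for Cd36, 8.18 for Vnn1 and 10.23 for Scp2, and control liver 1 reads 8.92 for Ehhadh and 4.86 for Acot1.

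Of 122 other genes of the pathway, 111 were measured, and 49 were lower and 9 higher in tumours, with a median log2 change of -0.44. The called shares among all genes were 12.7% lower and 16.2% higher. Of the genes counted under peroxisomal oxidation outside the list, 8 of 18 were lower and 0 higher, with a median of -0.39. Slc27a5, which activates bile acids and very long chains and is no enzyme of the peroxisomal cycle, changed by -3.99 (SE 0.17). Nudt7, a peroxisomal coenzyme A diphosphatase, changed by -3.60 (SE 0.31), and Hacl1, the lyase of alpha-oxidation, by -2.24 (SE 0.30). Of 13 peroxisome biogenesis genes 8 were lower and none higher, among them Pex11a, a factor of peroxisome division (-2.56, SE 0.32), its relative Pex11g (-0.78, SE 0.13) and Pex7, an import receptor (-0.89, SE 0.12). In mitochondrial oxidation outside the list 11 of 19 were lower and 1 was higher, with a median of -0.71. The medians of these peroxisomal and mitochondrial lists thus stood in the opposite order to those of the listed genes, -1.82 for peroxisomal and -0.21 for mitochondrial oxidation. The mitochondrial genes outside the list included some of branched amino acid and propionate breakdown. Those counted as peroxisomal included thioesterases and acyl-CoA synthetases, not all of them peroxisomal enzymes. The order of these medians therefore depends on which genes were chosen. The medium-chain acyl-CoA synthetases Acsm1 and Acsm5 changed by -3.96 (SE 0.18) and -3.74 (SE 0.17), and Acadsb, the dehydrogenase for short branched chains, by -1.36 (SE 0.17). Acot9, the higher gene (0.43, SE 0.15), passed narrowly (adjusted p = 0.0496 in limma). Its call was lost without any tumour or without control liver 1, 2 or 4.

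Omega-oxidation had 4 of 8 genes lower and none higher, against 12.7% lower and 16.2% higher among all genes. The fatty acid hydroxylase genes Cyp4f14 and Cyp4f15 changed by -4.19 (SE 0.28) and -4.16 (SE 0.20), and Cyp4a10, a target of PPAR alpha in rodents, by -3.22 (SE 0.67). Cyp4f14 averaged 5.06 in tumours, under the 5.39 named above, so its fold is a limit. Cyp4a12a and Cyp4a12b did not pass, with control liver 3 at 4.76 and 4.05. Their other controls all lay above the tumours, whose highest values were 9.70 and 9.77.

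Among 8 other ketone body genes 3 were higher and 3 lower, where all genes had 16.2% higher and 12.7% lower. Oxct1, the enzyme that activates acetoacetate for use and is low in normal hepatocytes, read 7.65, 7.46, 7.73 and 7.73 in tumours, against 6.61, 6.62, 7.08 and 6.71 in controls. It rose 1.85-fold (log2 change 0.89, SE 0.12, adjusted p = 0.000325 in limma). Slc16a1, a carrier of lactate and ketone bodies, rose by 0.96 (SE 0.13), and the related Slc16a6 by 0.31 (SE 0.10, adjusted p = 0.0458 in limma). The Slc16a6 call did not survive leaving out any single array other than tumour 4. Slc16a7, another carrier of the family, changed by -1.60 (SE 0.36), and Aacs, which activates acetoacetate in the cytosol, by -0.45 (SE 0.11). For Bdh2 the change was -0.67 (SE 0.20, adjusted p = 0.0281 in limma), and it did not pass when tumour 3 or 4, or control liver 2, 3 or 4, was left out. Oxct2a had a change of 0.05 (SE 0.13) and did not pass. Hmgcll1 averaged 4.97 in tumours and 5.04 in controls, both under the 5.39 named above, so whether it differed could not be measured here.

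Among 19 regulators 8 were lower and 2 higher, where all genes had 12.7% lower and 16.2% higher. Ppara, which encodes PPAR alpha, averaged 7.85 ± 0.17 in tumours and 8.90 ± 0.36 in controls (SD, n = 4 each), with the lowest control at 8.61. The groups did not overlap, and Ppara fell by 1.05 (SE 0.17, 2.07-fold, adjusted p = 0.000885 in limma). Ppargc1a, a coactivator of PPAR alpha, changed by -1.42 (SE 0.44, adjusted p = 0.0334 in limma), and it did not pass when tumour 1 or 4, or control liver 1, 2 or 3, was left out. Prkaa1 and Prkaa2 encode the catalytic subunits of the energy-sensing kinase AMPK. Prkaa1 rose by 1.02 (SE 0.11) and Prkaa2 fell by 0.91 (SE 0.17). Med1, a Mediator subunit that binds nuclear receptors, rose by 0.57 (SE 0.09).

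The last list held 26 measured genes chosen as other targets of PPAR receptors or as lipid droplet and lipase genes, and 7 were lower and 3 higher, with a median of -0.26, against 12.7% lower and 16.2% higher among all genes. Fabp2, a fatty acid binding protein, changed by -2.34 (SE 0.20), Mfsd2a, a carrier of lysophosphatidylcholine, by -1.60 (SE 0.18) and Retsat, which saturates retinol, by -1.31 (SE 0.39). The Retsat call was lost without tumour 2 or 4 or without control liver 2, 3 or 4. Fabp4, a binding protein of fat cells, macrophages and capillary endothelium, read 9.96, 9.50, 10.54 and 10.13 in tumours, against 6.66, 7.79, 7.66 and 7.47 in controls. It rose 6.23-fold (log2 change 2.64, SE 0.27), and the part of the marker levels given with Cd36 in this value was not tested. Tmem97 and Txnip rose by 1.67 (SE 0.34) and 1.55 (SE 0.26). Tmem97 is better known as a regulator of cholesterol transport and Txnip as an inhibitor of thioredoxin.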

How the data were processed

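Total RNA of 4 c-MYC liver tumours and 4 control livers was labelled with biotin and measured in 1 colour, 1 array per sample. The deposited table holds log2 values made by the authors with RMA and R 3.0.2, per the submitters' processing notes; the settings and the genome build are not given in the sources used here. The values were used as deposited. Of 34760 probe sets, 21640 had exactly 1 gene symbol in the platform annotation, and the probe set with the highest mean over the 8 arrays stood for each of 19937 genes. No gene of the list had more than 1 such probe set. The groups were compared over all genes with limma 3.58.1 (R 4.3.3) in a two-sided test with a single group term. Benjamini-Hochberg adjustment ran over the 19937 genes, and the threshold was an adjusted p of 0.05. Errors are SD over 4 arrays or SE from limma.

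The genes, the lists by step, the other pathway genes, the markers and the enzyme pairs were chosen with earlier results of these data known. All genes of the list were named, and of each list of other pathway genes at most the 3 largest rises and the 3 largest falls past the threshold, together with every measured ketone body gene, Ppara and Ppargc1a. Cyp4a12a, Cyp4a12b and Acaa1a were named outside this rule and were not part of the check for outlying values below. The enzyme pairs were tested by an exact permutation of the within-array difference over the 8 arrays, adjusted over 7 pairs. Promoters of GRCm38.p6 came from a RefSeq table that held 31 of the 37 measured genes. Alternatives were another normalisation, a filter on dim genes, other variance models, array weights, a replicate block, averaging over probe sets, a test against a 1.5-fold change and leaving out arrays. The fit was also tested on simulated data. Arrays give no counts, so their number limits the precision. The samples are numbered in the labels without naming the mice, so p-values measure the spread between these samples only. Python 3.11.15 with pandas 2.3.3 joined the results, and matplotlib 3.10.9 drew them.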

Additional observations from a re-analysis of the deposited data

Results flagged for a closer look

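In each group of 4 arrays, a value was looked at again when its gap to the nearest other array, divided by the range of the group, was above Dixon's critical value for 4 values. This was done for 138 groups of 4 in 69 named genes, and 7 met it, where chance gives about 1 in 20. The first 4 named here belong to the list. Scp2 read 10.23 in control liver 3, against 11.93 to 12.17 in the other controls. Acadm read 9.82 in control liver 1, against 10.28 to 10.35, and Etfb read 10.31 in control liver 4, against 9.40 to 9.46. Fabp1 read 12.18 in tumour 2, against 11.93 to 11.95 in the other tumours. Among the other pathway genes, Acsm1 read 6.99 in tumour 2, against 6.28 to 6.39, Pex11g read 6.76 in tumour 3, against 6.63 to 6.65, and Prkaa1 read 8.61 in control liver 3, against 8.29 to 8.34.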

How the results depend on the processing

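Against a 1.5-fold change in place of 0, limma called 963 of all genes higher and 756 lower, 0 of the listed genes higher and 8 lower, 0 mitochondrial oxidation genes lower, and 3 other pathway genes higher and 16 lower. The remaining 16 alternatives kept the call of 16 of the 19 listed genes past the threshold, and Acadvl, Acaa2 and Bdh1 lost theirs under at least 1; 8 genes not past it passed under at least 1. Leaving out each array in turn, 15 to 21 listed genes were lower and 2 to 3 higher, with 7 to 8 peroxisomal and 2 to 4 mitochondrial genes lower, 41 to 54 other pathway genes lower and 7 to 11 higher, and 2060 to 2561 of all genes lower and 2763 to 3277 higher. Same-numbered samples were not treated as paired. The correlation of their deviations from the group means lay between -0.32 and 0.05, and that of differently numbered samples between -0.22 and 0.31. Deviations within a group of 4 are tied to each other, so these values cannot show whether samples were paired. With the replicate block, 1 mitochondrial gene was lower, as Acadvl (adjusted p = 0.0695 in limma) and Acaa2 (0.0575) did not pass, and 5007 of all genes were called against 5757. Small changes turned sign. Acadm was -0.0005 with quantile normalisation, -0.022 to 0.16 over the single arrays left out (negative without control liver 1) and -0.004 without control livers 1 and 3. Acat1 was -0.11 to 0.27 over single arrays left out (negative without control liver 1 or 2) and -0.080 without control livers 1 and 3. Oxct2a was -0.069 to 0.12 over single arrays left out (negative without control liver 1) and -0.079 without control livers 1 and 3. Hmgcll1 was 0.0008 with quantile normalisation. Leaving out control livers 1 and 3 together, and the settings tried on the enzyme pairs, were chosen after seeing the data; quantile normalisation left 5 of 7 pairs past the threshold, as before. The causes were not tested.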
